A study of Mus musculus with 11 samples.

Results

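The endocrine pancreas is represented here by 10 genes, chosen by name: the islet hormones Ins1, Ins2, Gcg, Sst, Ppy and Iapp, and the genes of hormone storage and processing Chga, Chgb, Pcsk1 and Pcsk2. All 10 were found among the 54232 Ensembl identifiers of the count table, each under a single identifier. Bulk RNA sequencing counts were available for 11 orthotopic pancreatic tumors, 6 from hosts with PKN2 deletion (KO, replicates A to F) and 5 from wild-type hosts (WT, replicates A to E). All hosts were adult, age-matched female C57BL/6 mice that carried a single Rosa26 CreERT2 allele and had received the same tamoxifen. KO hosts had floxed alleles on both copies of Pkn2 and WT hosts had none. Each tumor was started from 1000 TB32048 cells, a mouse pancreatic carcinoma line with intact Pkn2, which was injected into the pancreas. Since Rosa26 drives Cre in all host tissues, islets and acini of a KO host belong to the deleted tissue as much as the stroma does, while the carcinoma cells do not. A portion of each tumor was sequenced, and the labels do not give how much host pancreas a portion held.

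Islets are small clusters of endocrine cells within the exocrine pancreas. Beta cells secrete insulin, alpha cells glucagon, delta cells somatostatin and PP cells pancreatic polypeptide. The hormones are made as precursors, cut by the prohormone convertases PC1/3 and PC2, and stored in dense-core granules together with chromogranins. Mice have a pair of insulin genes, Ins1 and Ins2, of which Ins1 arose by retroposition of an Ins2 transcript.

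Because the insulin genes are close copies, their coding sequences are shown first from the start codon over the first 300 columns of a global alignment, taken from the GENCODE M21 transcripts (GRCm38), 5′ to 3′, with capitals at the bases that differ between them or are present in Ins2 only.
Ins1: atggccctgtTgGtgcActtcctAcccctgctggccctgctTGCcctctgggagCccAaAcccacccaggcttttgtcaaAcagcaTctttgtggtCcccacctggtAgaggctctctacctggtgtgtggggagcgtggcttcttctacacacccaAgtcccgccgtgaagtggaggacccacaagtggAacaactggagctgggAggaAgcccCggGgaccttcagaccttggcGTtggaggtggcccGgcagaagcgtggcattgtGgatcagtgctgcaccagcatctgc
Ins2: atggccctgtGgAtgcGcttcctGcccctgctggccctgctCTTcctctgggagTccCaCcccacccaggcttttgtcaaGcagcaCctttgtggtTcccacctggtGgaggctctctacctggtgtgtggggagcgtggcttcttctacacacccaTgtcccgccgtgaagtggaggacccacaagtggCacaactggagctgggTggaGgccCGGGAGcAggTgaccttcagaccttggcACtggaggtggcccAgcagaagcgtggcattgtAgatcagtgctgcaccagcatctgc
The whole alignment, without the stop codon, held 300 identical bases in 330 columns (90.9%), with 24 mismatches and 6 bases present in Ins2 only. The longest run shared by any annotated Ins1 and Ins2 transcript was 56 bases. The authors counted only uniquely aligned reads, so a fragment that fitted each gene equally well was in neither count. Ppy and its relative Pyy (peptide YY) shared no run above 10 bases.

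Ins1 (ENSMUSG00000035804) lies on chromosome 19, 52264297 to 52265476, plus strand, and Ins2 (ENSMUSG00000000215) on chromosome 7, 142678656 to 142743381, minus strand, in GRCm38. Gcg (ENSMUSG00000000394), which encodes the glucagon precursor, lies on chromosome 2, 62474530 to 62483650, minus strand. Sst (ENSMUSG00000004366) lies on chromosome 16, 23889573 to 23890958, minus strand, Ppy (ENSMUSG00000017316) on chromosome 11, 102099930 to 102101319, minus strand, and Iapp (ENSMUSG00000041681), the gene of the amyloid peptide that beta cells release with insulin, on chromosome 6, 142298423 to 142303961, plus strand. None of the 10 shared exon bases with another annotated gene on its own strand, and the libraries were counted with strand. Pcsk2 and Iapp have annotated genes on the opposite strand within their span.

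Promoter windows were available for 9 of the 10 members, all but Ins2, from RefSeq on GRCm38.p6, covering 250 bases before to 50 bases after the annotated start. The windows of Ins1, Gcg, Iapp and Sst are shown as examples of hormones counted in the same tumors (below), and that of Ppy, which was counted there too, is not. They run 5′ to 3′ on the strand of the gene. Capitals mark matches, on either strand, to the E box CATCTG, the homeodomain core TAATG, the core TGACG of the cyclic AMP response element and the TATA box TATAAA.
Ins1 (chr19:52264047-52264346, plus strand): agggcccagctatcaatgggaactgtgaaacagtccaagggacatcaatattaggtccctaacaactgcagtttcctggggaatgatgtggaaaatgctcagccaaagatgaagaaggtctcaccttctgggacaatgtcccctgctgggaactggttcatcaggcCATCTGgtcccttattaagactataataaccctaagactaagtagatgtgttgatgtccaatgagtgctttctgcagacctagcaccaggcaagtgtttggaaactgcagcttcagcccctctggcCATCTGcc
Gcg (chr2:62483604-62483903, minus strand): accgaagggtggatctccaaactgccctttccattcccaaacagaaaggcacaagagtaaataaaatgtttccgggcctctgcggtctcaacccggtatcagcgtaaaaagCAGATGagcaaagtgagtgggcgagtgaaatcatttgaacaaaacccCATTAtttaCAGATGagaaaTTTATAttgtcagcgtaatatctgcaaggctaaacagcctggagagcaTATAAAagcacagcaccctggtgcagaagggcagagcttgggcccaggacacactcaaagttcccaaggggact
Iapp (chr6:142298175-142298474, plus strand): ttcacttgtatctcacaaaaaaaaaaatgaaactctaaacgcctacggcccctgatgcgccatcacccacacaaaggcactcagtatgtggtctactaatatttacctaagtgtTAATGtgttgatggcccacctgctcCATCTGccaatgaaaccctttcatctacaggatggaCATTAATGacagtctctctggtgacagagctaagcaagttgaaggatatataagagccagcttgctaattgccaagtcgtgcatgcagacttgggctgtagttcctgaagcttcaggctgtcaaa
Sst (chr16:23890795-23891094, minus strand): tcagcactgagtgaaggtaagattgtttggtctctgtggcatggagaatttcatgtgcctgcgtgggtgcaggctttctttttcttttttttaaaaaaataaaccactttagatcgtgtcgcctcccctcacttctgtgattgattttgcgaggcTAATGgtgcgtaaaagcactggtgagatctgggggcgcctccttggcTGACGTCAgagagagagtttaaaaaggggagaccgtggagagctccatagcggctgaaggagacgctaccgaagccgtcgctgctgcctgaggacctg
CATCTG, a site of the kind that NEUROD1 binds, was present in 3 of the 9 windows, with 2 matches for Ins1, 2 for Gcg and 1 for Iapp. It was present in 17.2% of all 32851 promoter windows. TAATG was found in Gcg, Iapp and Sst, against 26.8% of all windows, and 2 of the 3 matches in Iapp overlap. The full palindromic element TGACGTCA, which contains this core on each strand, was present for Sst (48 bases before the start), Chgb (72 bases) and Pcsk1 (78 bases), against 1.79% of all windows. The core was present for 5 of the 9 members (20.8% of all windows) and TATAAA for 3 (13.6%). Some matches lay after the start, namely TATAAA of Chga (5 bases) and the later CATCTG of Ins1 (42 bases). The Ppy window, not shown, held TATAAA 31 bases before the start and none of the other motifs, so these are not shared by all hormones counted together. These are matches of letters, and the data hold no measurement of binding.

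WT replicate B had the lowest total count, 16294128, and WT replicate E the highest, 31121422. Levels are given as CPM, counts relative to library totals scaled by the trimmed mean of M values (TMM). At these depths a count of 0 allows up to 3 reads, or 0.0883 to 0.250 CPM, with the highest limit in WT replicate B, whose scaling factor of 0.736 was also the lowest. Pkn2 itself was between 80.0 and 107.8 CPM in KO tumors and between 62.8 and 138.3 CPM in WT tumors, so in this mixture with Pkn2-intact carcinoma cells it does not check the genotype labels.

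Hormone transcripts were abundant together in 3 tumors, low together in 1 and almost absent in 7. A hormone was taken as present at 10 reads or more. All 6 were present in KO replicate F and WT replicate E. In WT replicate A 5 were present, with Sst at 4 reads, and in WT replicate C 4 were present, with Iapp at 9 reads and Sst at 1. With counts scaled to the smallest library, only 1 hormone reached 10 reads in WT replicate C. The numbers in KO replicate F and WT replicates A and E were unchanged by this scaling. No hormone was present in the other 7 tumors, which are KO replicates A to E and WT replicates B and D. These held 0 to 8 reads over the 6 genes together, and KO replicates B, C and D held 0. Hormone transcripts were thus present in 1 of 6 KO and 3 of 5 WT tumors. The summed hormone level was 313 CPM in WT replicate E, 77.1 in KO replicate F, 64.5 in WT replicate A and 3.24 in WT replicate C, and at most 0.324 CPM (KO replicate E) elsewhere. WT replicate E exceeded KO replicate F 4.06-fold (95% exact binomial interval 3.86 to 4.26) and WT replicate A 4.85-fold (4.59 to 5.12). These intervals include no error other than that of counting, as no molecular identifiers were used. In bulk tissue, fewer cells of a type and less RNA per cell cannot be told apart.

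**Figure D1:**
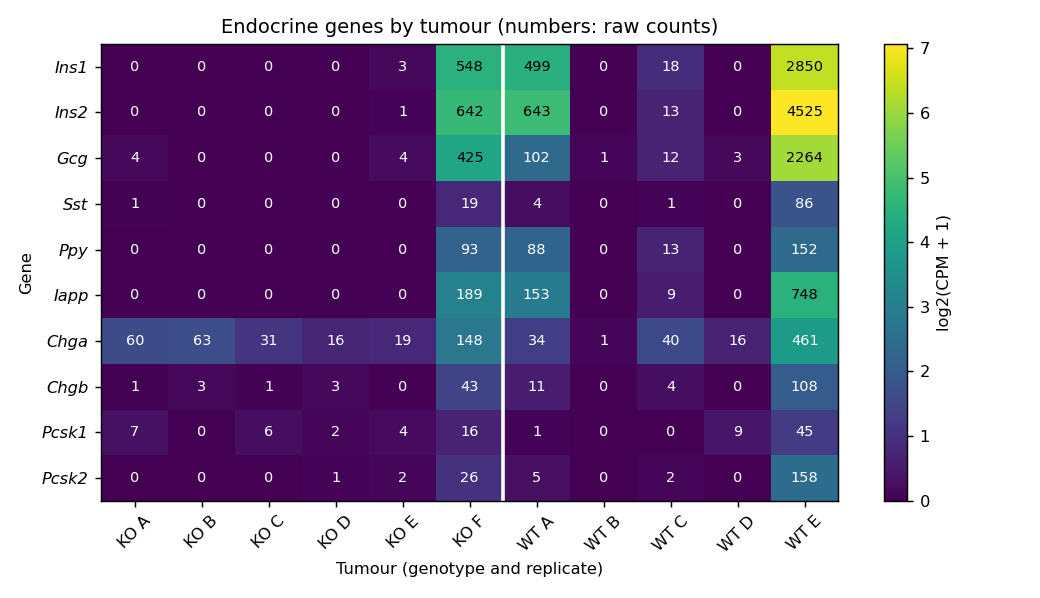
Level of the 10 endocrine genes (rows) in each of the 11 tumors (columns, KO left and WT right of the white line) as color on the log2(CPM + 1) scale, with the raw count printed in each cell. Hormone reads fill the columns of KO replicate F and WT replicates A and E, and Chga is the only gene with a count above 0 in every column.

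The insulin genes had the most reads among the hormones in KO replicate F and WT replicates A and E. In WT tumors Ins2 was at 27.9 CPM in replicate A, 0 in B, 0.638 in C, 0 in D and 133 in E. In KO tumors its lowest and median levels were 0 and the highest, in replicate F, was 25.8. Ins1 was at 21.6, 0, 0.883, 0 and 83.9 CPM in WT replicates A to E, and at a median of 0 and a highest level of 22.1 CPM in KO tumors. For each gene KO replicate F lay within the range of the WT tumors, and the other 5 KO tumors overlapped WT replicates B and D at or near 0. Mean Ins2 was 4.31 ± 10.5 CPM in KO (SD, n = 6) and 32.3 ± 57.7 CPM in WT tumors (SD, n = 5), so that the spread exceeded the mean in each group. Iapp followed the insulins, at 6.63, 0, 0.442, 0 and 22.0 CPM in WT replicates A to E and 7.61 CPM in KO replicate F, with 0 reads in the other 5 KO tumors.

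Gcg, the alpha cell hormone, was at 4.42, 0.0833, 0.589, 0.117 and 66.7 CPM in WT replicates A to E. In KO tumors it ranged from 0 through a median of 0.0700 to 17.1 CPM in replicate F. It was the hormone most often seen at trace level, with 1 to 4 reads in KO replicates A and E and WT replicates B and D. Ppy was at 3.81, 0, 0.638, 0 and 4.48 CPM in WT replicates A to E and at 3.74 CPM in KO replicate F, and had 0 reads in all other KO tumors. The 3 highest Ppy levels therefore lay close together. Among the same 3 tumors insulin was far higher in WT replicate E but similar in KO replicate F and WT replicate A, and glucagon differed widely. Sst, from delta cells, was the lowest of the 6 hormones in each of KO replicate F and WT replicates A, C and E, with 19, 4, 1 and 86 reads.

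The mix of hormones was compared in the 3 tumors with at least 100 hormone reads, which held 1916 (KO replicate F), 1489 (WT replicate A) and 10625 reads (WT replicate E). Gcg took 22.2% of hormone reads in KO replicate F (95% exact binomial interval 20.3 to 24.1) and 21.3% in WT replicate E (20.5 to 22.1), but 6.85% in WT replicate A (5.62 to 8.25). Of reads from Gcg and the insulins alone, Gcg made up 26.3% in KO replicate F (24.2 to 28.5), 23.5% in WT replicate E (22.6 to 24.3) and 8.20% in WT replicate A (6.73 to 9.86). The insulin-rich mix was thus found in 1 of the 3, and the tumors from a KO and a WT host were the closer pair. WT replicate C, with 43 reads of these genes, gave 27.9% (15.3 to 43.7).

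Ppy set the tumors apart in another order. Its share of hormone reads was 5.91% in WT replicate A (4.77 to 7.23) and 4.85% in KO replicate F (3.94 to 5.91), with overlapping intervals, and 1.43% in WT replicate E (1.21 to 1.67). Relative to glucagon, Ppy made up 46.3% of Ppy and Gcg reads in WT replicate A (39.1 to 53.7), 17.95% in KO replicate F (14.7 to 21.5) and 6.29% in WT replicate E (5.36 to 7.33). WT replicate C stood at 52.0% on 25 reads (31.3 to 72.2). Per kilobase of exon the Ppy share was 72.1% in WT replicate A, 39.5% in KO replicate F and 16.7% in WT replicate E, in the same order but with Ppy above Gcg in WT replicate A. Per kilobase of coding sequence it was 60.8%, 28.3% and 10.8%. Sst made up 4.28% of Sst and Gcg reads in KO replicate F (2.60 to 6.60), 3.77% in WT replicate A (1.04 to 9.38) and 3.66% of 2350 such reads in WT replicate E, within the intervals of the other two. With 1 tumor per mix, these intervals compare libraries and not genotypes.

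**Figure D2:**
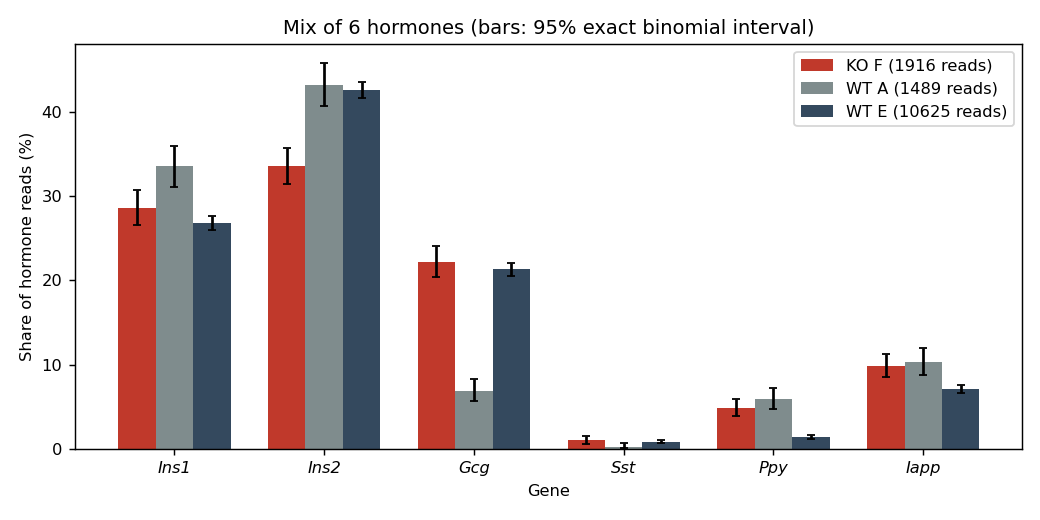
Share of each hormone (percent, y axis) in the reads of the 6 hormone genes for the 3 tumors with at least 100 such reads, with 95% exact binomial intervals. Gcg is at 6.85% in WT replicate A against 22.2% and 21.3% in KO replicate F and WT replicate E, and Ppy is at 1.43% in WT replicate E against 4.85% and 5.91%.

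Within the insulin pair, Ins1 made up 46.1% of reads in KO replicate F (43.2 to 48.9), 43.7% in WT replicate A (40.8 to 46.6) and 38.6% in WT replicate E (37.5 to 39.8). Iapp relative to the insulins was 13.7% in KO replicate F (11.9 to 15.6), 11.8% in WT replicate A (10.1 to 13.7) and 9.21% in WT replicate E (8.59 to 9.86), so that WT replicate E had the lowest share in each pair. Levels of different genes were compared per kilobase of annotated exon. On that scale WT replicate E held 3449 Ins2, 2684 Ins1, 1515 Gcg, 768 Iapp, 304 Ppy and 119 Sst reads. WT replicate A held 490 Ins2, 470 Ins1, 176 Ppy, 157 Iapp, 68.3 Gcg and 5.55 Sst reads per kilobase, so that glucagon stood below Ppy and Iapp there. On coding length Iapp (548) stood above Ppy (293) in that tumor, and glucagon (189) below both. In KO replicate F, Ins1 (516 reads per kilobase) exceeded Ins2 (489), an order that turned on coding length, where Ins1 was at 1691 and Ins2 at 1945. The annotated Ins1 transcript spans 1062 bases and the Ins2 transcript shown above 478, for coding sequences of 324 and 330 bases.

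The granule and processing genes followed the hormones to different degrees. Pcsk2, which encodes the convertase PC2 that releases glucagon, was at 4.65 CPM in WT replicate E and 1.05 in KO replicate F, with 0.217 CPM or less elsewhere. Chgb (chromogranin B) was at 3.18, 1.73 and 0.477 CPM in WT replicate E, KO replicate F and WT replicate A, and at 0 to 0.196 CPM in the rest. Both genes were thus highest in the tumors with the most hormone reads.

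Chga (chromogranin A) was counted in all 11 tumors and reached 10 reads in all but WT replicate B. It was at 1.47, 0.0833, 1.96, 0.626 and 13.6 CPM in WT replicates A to E. In KO tumors it ranged from 0.650 through a median of 1.59 to 5.96 CPM. Its highest levels were in WT replicate E and KO replicate F, but KO replicates B and A, with 0 and 5 hormone reads, had 63 and 60 Chga reads, above the 34 of WT replicate A with its 1489 hormone reads. Pcsk1, for PC1/3, the convertase that acts first on proinsulin, was low throughout. It was at 1.32 CPM in WT replicate E, 0.644 in KO replicate F and 0.352 in WT replicate D, and at 0.0433 CPM (1 read) in WT replicate A.

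To compare KO with WT tumors, edgeR's quasi-likelihood test was fitted to the whole table. Its expression filter kept 16536 genes and only Chga of the 10, since the other 9 reached the needed level in too few tumors. The log2 fold change of Chga, KO over WT, was -0.76 (SE 0.90, edgeR adjusted p = 0.625). At an adjusted p under 0.05 the test called 0.0181% of all genes, and at an unadjusted p under 0.05 24%, Chga in neither. Without WT replicate E the fold change turned to 1.01 (edgeR adjusted p = 0.377).

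The 9 genes outside the filter were compared singly by exact two-sided permutation tests of mean log2(CPM + 1) over all 462 splits of the tumors. The smallest possible p is 0.00216 where no other split ties with the most extreme one. It is larger for Ppy and Iapp, which were counted in only 4 tumors. For Ins2 the means were 0.80 ± 1.93 in KO (SD, n = 6) and 2.53 ± 3.24 in WT tumors (SD, n = 5), a difference of -1.73 (exact permutation p = 0.227). For Ins1 the difference was -1.58 (exact permutation p = 0.273), for Gcg -1.13 (p = 0.413), for Iapp -1.08 (p = 0.273), for Ppy -0.71 (p = 0.227) and for Sst -0.28 (p = 0.500). Chgb, Pcsk1 and Pcsk2 differed by -0.27, -0.07 and -0.38, with exact permutation p from 0.511 to 0.801. KO tumors thus had the lower mean for each of the 9, and for none did the difference exceed the spread between tumors. The groups overlapped in CPM for all 10 genes. Of all genes, 3.57% of those that passed the filter and 2.24% of the 29689 fitted without it did not overlap.

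In edgeR without the filter, 0 of the 10 members passed at an adjusted p under 0.05, where 0.152% of the 29689 genes did, and 0 at an unadjusted p under 0.05, where 16.5% did. DESeq2 also called 0, with a p of NA for Gcg, Sst and Pcsk2, and called 8% of the 18612 genes to which it gave an adjusted p. The median log2 fold change of the members in edgeR without the filter was -2.15, beside -0.05 for all genes. Their adjusted p-values in that edgeR fit ran from 0.377 (Pcsk2) to 0.712 (Pcsk1). Single tumors decided these values. Without KO replicate F, Gcg differed by -1.81 (exact permutation p = 0.0476), and without WT replicate E by -0.081 (exact permutation p = 0.924). Without WT replicate E the differences shrank to -0.57 for Ins1, -0.59 for Ins2, -0.35 for Iapp and -0.37 for Ppy, and those of Sst, Chgb, Pcsk1 and Pcsk2 turned positive, from 0.07 to 0.15. With KO replicate F and WT replicate E both left out, edgeR without the filter called Ins1 (log2 fold change -7.63, edgeR adjusted p = 0.0461) and Ins2 (-9.10, edgeR adjusted p = 0.0371), which then rest on WT replicates A and C. In that fit 0.697% of 28974 genes were called lower in KO tumors, beside 0.0202% of 29689 with no tumor left out. With the replicate letter as a block, which drops KO replicate F, 5 members and 0.209% of all genes were called lower, but the letters are not known to pair the hosts.

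**Figure D3:**
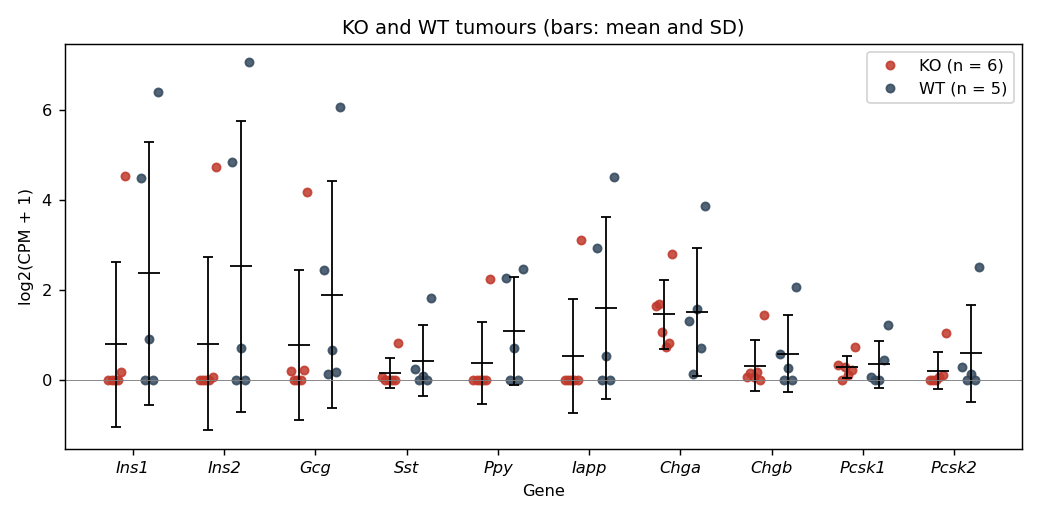
Level of each gene on the log2(CPM + 1) scale (y axis) in the 6 KO tumors (red) and 5 WT tumors (dark), 1 point per tumor, with mean and SD as black bars. For every gene the groups overlap, and the hormone means are set by KO replicate F and by WT replicates A, C and E.

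Acinar cells, which secrete the digestive enzymes and surround the islets, were followed through 14 acinar genes as a measure of exocrine pancreas in each piece. The summed acinar level was 2885 CPM in WT replicate E, 979 in KO replicate E, 311 in WT replicate A, 100.4 in WT replicate B and 32.7 in WT replicate C. It was 8.44 to 16.7 CPM in the other 6 tumors, among them KO replicate F at 12.4. WT replicates E and A were therefore high in both hormones and acinar genes, with 9.22 and 4.81 acinar CPM per hormone CPM. KO replicate F held 0.161 acinar CPM per hormone CPM, and KO replicate E had all 14 acinar genes at 10 reads or more with only 8 hormone reads. In KO replicate E the chymotrypsinogen gene Ctrb1 was at 359 CPM and Ins2 at 0.0406, and in KO replicate F they were at 3.70 and 25.8 CPM. Other acinar genes with high means were Pnliprp1, a lipase-related protein (121 CPM in KO replicate E and 428 in WT replicate E), and the trypsinogen Prss2 (112 and 403 CPM). Of the 14 acinar genes 5 passed the edgeR filter and 0 of them the threshold, with a median log2 fold change of -1.96. That median is the value of Cela1, the only one of them with an unadjusted edgeR p under 0.05 (0.0033). Cela1 was counted in every tumor and made up much of the low sums. It held 933 of 1205 acinar reads in WT replicate B, 574 of 666 in WT replicate C and 365 of 431 in KO replicate B. In KO replicate F it held 109 of 308. There 6 acinar genes reached 10 reads and Ctrb1 had 92, against 2 to 3 genes and 2 to 11 Ctrb1 reads in KO replicates A to D. In WT replicate D these were 4 genes and 15 reads. The acinar signal of KO replicate F, though low, was thus broader than in KO replicates A to D.

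**Figure D4:**
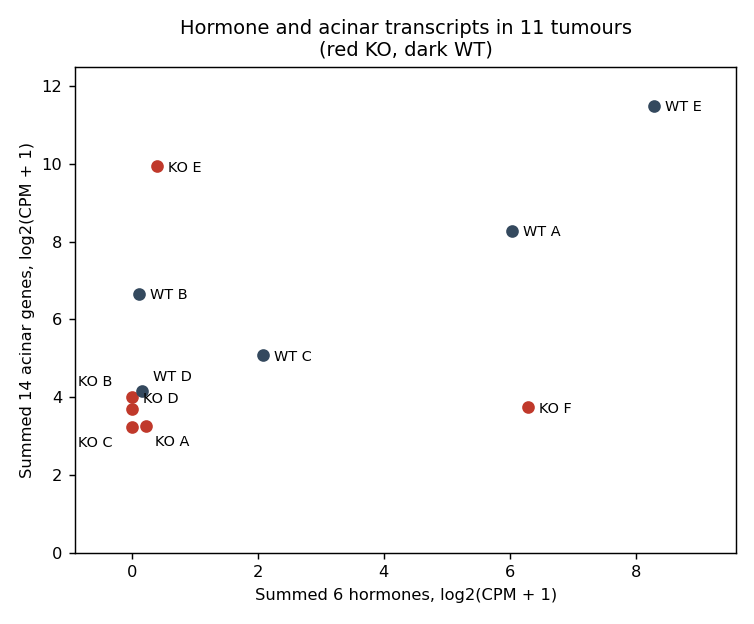
Summed level of the 6 hormones (x axis) against that of 14 acinar genes (y axis), each as log2(CPM + 1), 1 point per tumor (red KO, dark WT). KO replicate F (77.1 hormone CPM, 12.4 acinar CPM) and KO replicate E (0.324 and 979 CPM) are each high on 1 axis only, whereas WT replicates A (64.5 and 311 CPM) and E (313 and 2885 CPM) are high on both.

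Markers of other cells were followed through 4 further lists. Of 11 neuron genes, the sympathetic enzyme gene Dbh had 0 reads in every tumor and Th at most 5, whereas Tubb3 and Uchl1 were counted in all. The summed neuron level was 76.1 to 252 CPM in KO and 19.9 to 139 CPM in WT tumors. Of the Schwann cell genes Sox10 and Foxd3 had at most 1 read, and the list sum was 45.8 to 63.0 CPM in KO and 22.6 to 143.5 CPM in WT tumors, while that of 4 macrophage genes was 525 to 862 and 334 to 641 CPM. Epithelial genes shared by ducts and carcinoma, led by Krt18, Krt8 and Krt19, summed to 2284 to 4663 CPM in KO and 3055 to 7859 CPM in WT tumors. KO replicate F had the lowest KO level of Krt19, at 245 CPM, and of Krt8, at 772. Of these lists, 5 of 11 neuron, 3 of 6 Schwann cell, 4 of 4 macrophage and 7 of 7 epithelial genes passed the filter, and 0 passed the threshold. Their median log2 fold changes were 0.86, -0.24, 0.53 and -0.63, beside -0.03 for all genes tested. At an unadjusted edgeR p under 0.05, which 24% of all genes passed, 1 neuron and 2 macrophage genes were higher in KO tumors. Lower were 3 epithelial genes, and no Schwann cell gene passed. The macrophage receptor gene Csf1r averaged 317 ± 61.9 CPM in KO tumors and 178 ± 62.4 CPM in WT tumors (edgeR adjusted p = 0.0967). The part of these cells in the Chga and Pcsk1 counts was not tested.

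Other genes of the endocrine programme were read from 4 lists of 44 genes. Of 12 secretory granule genes 4 passed the edgeR filter, 2 with a higher and 2 with a lower mean in KO tumors, and 0 passed the threshold or an unadjusted p under 0.05. The most abundant were Cpe, the carboxypeptidase that trims cut prohormones, and Ptprn, the granule membrane protein IA-2. Cpe was at 191 ± 90.7 CPM in KO (SD, n = 6) and 184 ± 89.7 CPM in WT tumors (SD, n = 5), and its highest level, 320 CPM, was in KO replicate E with almost no hormone. Ptprn was at 108 ± 30.6 and 119 ± 66.2 CPM. Neither followed the hormones. Syt7, a calcium sensor of exocytosis, was at 3.20 ± 1.503 and 2.11 ± 1.51 CPM (edgeR adjusted p = 0.466). Resp18 had 60, 14 and 9 reads in WT replicate E, KO replicate F and WT replicate A and at most 2 elsewhere.

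Of 10 genes of beta cell glucose sensing and secretion 4 passed the filter, 3 higher and 1 lower in KO, and 0 passed the threshold. At an unadjusted edgeR p under 0.05, 1 of them, Ffar1, was higher in KO tumors. The potassium channel subunits Kcnj11 (10.3 ± 3.39 CPM in KO, 7.34 ± 6.30 in WT) and Abcc8 (2.01 ± 1.29 and 2.06 ± 1.72) and the glucose transporter Slc2a2 (1.46 ± 0.641 and 1.23 ± 0.539) were counted in tumors with and without hormones. By contrast, G6pc2, the islet form of glucose-6-phosphatase, had 77, 11 and 6 reads in WT replicate E, KO replicate F and WT replicate A and 0 in all others. Slc30a8, the zinc transporter of insulin granules, had 19 reads in WT replicate E, 2 in WT replicate A and 0 elsewhere, KO replicate F included. Ucn3, a marker of mature beta cells, had 20 reads in WT replicate E and at most 2 elsewhere. Ffar1, a fatty acid receptor, had a log2 fold change of 1.67 with all tumors (edgeR adjusted p = 0.119), and was called only without WT replicate E (2.45, edgeR adjusted p = 0.0302), where 3.63% of 16731 genes were called higher in KO.

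Of 15 endocrine transcription factors 6 passed the filter, 4 higher and 2 lower in KO, and 0 passed the threshold. At an unadjusted edgeR p under 0.05, 1 was higher in KO tumors. Pdx1 and Hhex, which act in islets but also in other cells, were among the most abundant. Pdx1 was at 38.5 ± 10.8 CPM in KO and 45.1 ± 11.7 in WT tumors (edgeR adjusted p = 0.554), and at 23.1 CPM, its lowest, in KO replicate F. Hhex was at 96.3 ± 19.5 CPM in KO tumors and 92.4 ± 46.3 CPM in WT tumors. The beta cell factor Nkx6-1 had 19, 10 and 4 reads in WT replicate E, KO replicate F and WT replicate A and 0 in all others, and Nkx2-2 had 7, 8 and 2 reads there and 0 in all others. Pax4 and Neurog3, factors of endocrine progenitors, had 0 reads and at most 1 read. Neurod1 had 9, 2 and 4 reads in WT replicate E, KO replicate F and WT replicate A and 0 in all others. Rfx6, Insm1 and Isl1 did not follow the hormones. Rfx6 had 210 reads in KO replicate A, where hormones were at 5 reads, and at most 6 elsewhere. Insm1 had 217 reads in KO replicate A against 48 in WT replicate E, and Isl1 had 101 in KO replicate C against 25 in WT replicate E.

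Among 7 other hormones of gut and pancreas, Pyy stood with the islet hormones, at 4.95 CPM in WT replicate E, 2.86 in KO replicate F, 1.86 in WT replicate A and 0.343 in WT replicate C, with 0 reads in all others. Nts (neurotensin) was at 2.83 ± 2.68 CPM in KO and 2.55 ± 1.79 in WT tumors (edgeR adjusted p = 0.912), and Cck (cholecystokinin) at 0.338 ± 0.560 and 0.398 ± 0.267. Gast had 0 reads in every tumor. Across the 4 lists, 0 genes passed the edgeR threshold, where 0.0181% of all genes did.

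**Figure D5:**
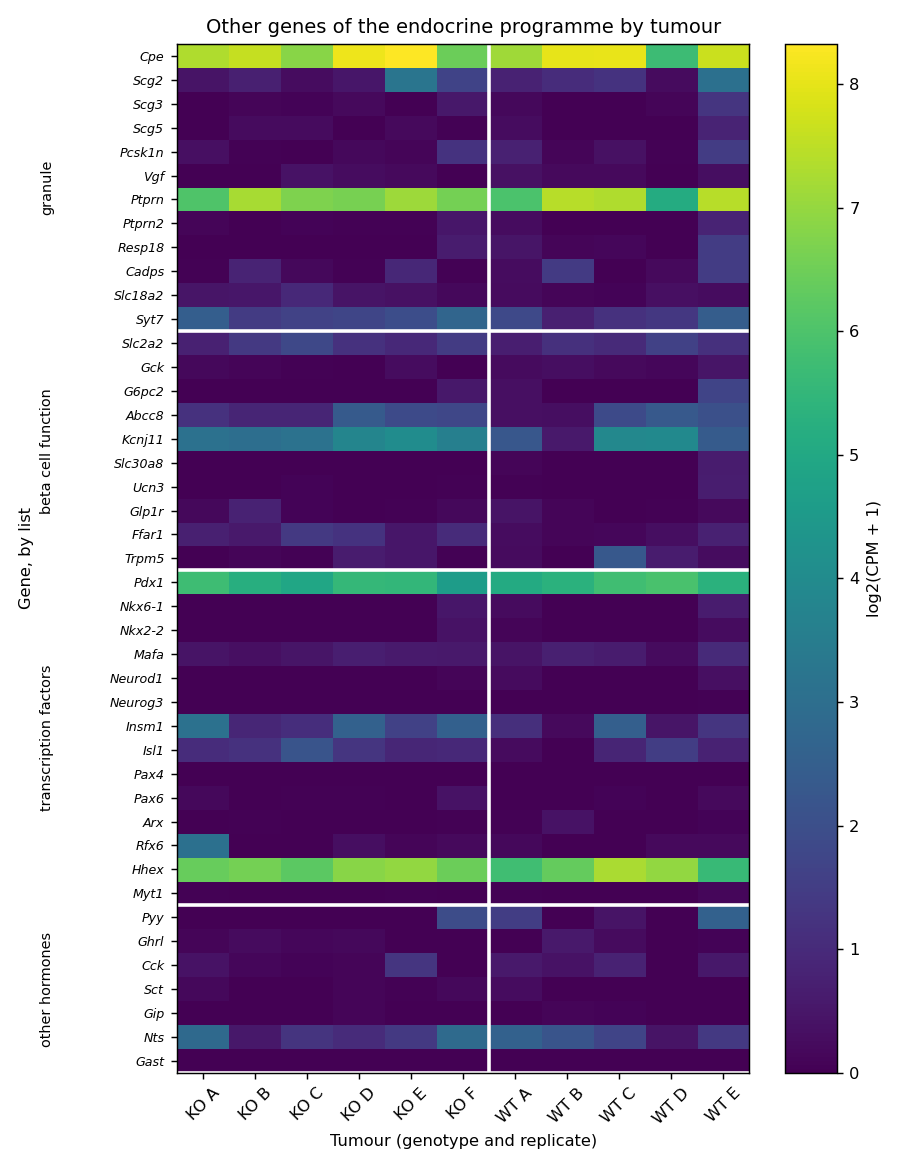
Level of other endocrine genes (rows, grouped by list) in the 11 tumors (columns) as color on the log2(CPM + 1) scale. Cpe, Ptprn, Pdx1 and Hhex are high in every tumor, whereas Pyy, Resp18, G6pc2 and Nkx6-1 have their 3 highest levels in KO replicate F and WT replicates A and E.

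Genes outside the 10 were also ranked by how closely their log2(CPM + 1) followed that of the summed hormones over the 11 tumors, among 18492 genes with at least 50 reads. The points are single tumors that share their library and depth, and 3 tumors carry most of the spread, so the coefficients are descriptions. Pyy ranked first (Pearson coefficient 0.993, and 0.997 over the 9 tumors other than WT replicate E and KO replicate F). The convertase inhibitor Pcsk1n (0.965 and 0.915) and the amino acid transporter Slc38a4 (0.963 and 0.934) came next. The others were Slc28a3, Irx1, Rab25, Cltrn, Capsl, Mmp7 and Resp18, with coefficients from 0.950 to 0.925, and from 0.852 to 0.966 over the 9 tumors. Mmp7, a matrix metalloproteinase of epithelia, had the most reads of these, with 1190 in KO replicate F, 665 in WT replicate E, 294 in WT replicate A, 76 in WT replicate C and 0 to 51 in the rest. The most alike acinar gene, Pnliprp1, ranked at 294 with a coefficient of 0.633.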

How the data were processed

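RNA was extracted from a portion of each of 11 tumors and sequenced as stranded paired-end libraries. The authors trimmed reads with Trimmomatic, aligned them to mm10 (GRCm38) with HISAT2 (version 2.1.0) and counted uniquely aligned reads over exons with HTSeq (version 0.11.2). They deposited raw counts per gene and a normalised signal, which is the raw count divided by 1 factor per sample. All tests used the raw counts, with the deposited normalised signal as an alternative. Symbols, coordinates and exon lengths came from GENCODE M21.

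Groups and replicate letters were taken from the sample titles. The whole table was fitted with edgeR (version 4.0.16, R 4.3.3; quasi-likelihood F-test, TMM, filterByExpr, no covariate, Benjamini-Hochberg adjustment over all genes tested, threshold 0.05). Standard errors were derived from the F statistic and the fold change. DESeq2 (version 1.42.0) was an alternative. Genes that failed the filter were tested by exact two-sided permutation of mean log2(CPM + 1). A pseudocount of 1 CPM understates the change of low genes. In a simulation of this comparison (16536 genes, 200 given a log2 change of 2), 190 were found and 3 others called. It held only genes that passed the filter and gave each the same dispersion. It therefore checks that the code runs correctly and does not give the power to detect changes in the endocrine genes.

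The members and lists were chosen with earlier results of these data known, including that islet markers were high in KO replicate F and WT replicate E. All members were named, the 3 genes of highest mean CPM from each list, and the 10 genes most like the hormone sum, except that some list genes are counted but not reported by name here. Further list genes were named after their values were seen: Resp18, G6pc2, Slc30a8, Ucn3, Ffar1, Nkx6-1, Nkx2-2, Neurod1, Pax4, Neurog3, Rfx6, Insm1, Isl1, Cela1, Gast, Dbh, Th, Sox10 and Foxd3. The labels do not state whether replicate letters pair the hosts, so the letters were not used as pairs in the main tests. Same-lettered tumors deviated together with correlations from -0.172 to 0.163. These describe expression only and cannot show whether the hosts were paired. The labels give no sequencing batch. The alternatives were other size factors, no filter, DESeq2, a replicate block, another pseudocount and leaving out tumors.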

Additional observations from a re-analysis of the deposited data

Results flagged for a closer look

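In 24 groups of 5 or 6 tumors examined on the log2(CPM + 1) scale, 13 values stood apart by Dixon's criterion at 95%. For normally distributed values chance flags about 1 in 20 groups. That rate does not apply here, since many values are 0 and the genes were chosen with KO replicate F and WT replicate E known to be high. The flags are descriptions. The values are not independent, since 9 of them belong to 1 tumor. KO replicate F was far above the other KO tumors for Ins1 (4.53, others 0 to 0.17), Ins2 (4.75, others 0 to 0.06), Gcg (4.18, others 0 to 0.22), Sst (0.82, others 0 to 0.05), Ppy (2.25, others 0), Iapp (3.11, others 0), Chgb (1.45, others 0 to 0.17), Pcsk2 (1.03, others 0 to 0.11) and the summed hormones (6.29, others 0 to 0.41). Its Chga and Pcsk1 were not far apart by this criterion. WT replicate E was far above the other WT tumors for Sst (1.82, others 0 to 0.23), Chgb (2.06, others 0 to 0.56) and Pcsk2 (2.50, others 0 to 0.28). The summed acinar genes were at 9.94 in KO replicate E, against 3.24 to 4.01 in the other KO tumors.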

How the results depend on the processing

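The additional alternatives were chosen after seeing the data: edgeR without a filter under other sets of tumors, and coding length. The Chga fold change turned positive without WT replicate E (1.01) and without both KO replicate F and WT replicate E (0.37), and ranged from -1.40 to 1.01 over the 11 fits that each left out 1 tumor. Among 126 alternative values for the 9 genes outside the filter, 117 kept the direction and the side of the threshold, 2 passed it (Gcg, -1.81 without KO replicate F and -0.76 without both tumors, each with exact permutation p = 0.0476), and 7 turned positive. These were Sst (0.070), Chgb (0.10), Pcsk2 (0.10) and Pcsk1 (0.15) without WT replicate E, and Pcsk1 with a pseudocount of 0.1 CPM (0.12), on the deposited normalised values (0.36) and without both tumors (0.06). The lowest differences of these 4 genes when 1 tumor was left out were -0.41 (Sst), -0.50 (Chgb), -0.16 (Pcsk1) and -0.55 (Pcsk2), each without KO replicate F. In edgeR without a filter, leaving out WT replicate E turned Gcg to 1.16, Sst to 1.11, Chgb to 0.94, Pcsk1 to 1.01 and Pcsk2 to 1.19, and leaving out both tumors turned Pcsk1 to 0.37.

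The count of members called stayed at 0 in the main fit and its alternatives. Without a filter it was 0, stayed at 0 over the 11 fits that left out 1 tumor, and was 2 without both tumors. With the replicate letter as a block, in which KO replicate F has no partner and drops out, it was 5 (Ins1, Ins2, Gcg, Ppy and Iapp, all lower in KO, as were 0.209% of the 29689 genes in that fit) against 0 with the block and the filter. Chga was at -0.21 with the block. Same-lettered tumors are not known to be paired, and of KO replicates A to E only A correlated best with its own letter. The number of other endocrine genes called was 0, and 0 to 1 when 1 tumor was left out.

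Tumors with at least 1 hormone numbered 4 at 10 reads, 7 at 3 reads and 8 at 1 read, and those with all 6 numbered 2 at 10 reads and 4 at 1 read. The Gcg share of Gcg and insulin reads moved from 26.3% to 22.1% per kilobase of exon and 17.8% per kilobase of coding sequence in KO replicate F, from 8.20% to 6.64% and 5.14% in WT replicate A, and from 23.5% to 19.8% and 15.7% in WT replicate E, so WT replicate A stayed lowest. Depth limits Sst, Pcsk1 and Pcsk2, each with at most 9 reads in 9 of the 11 tumors.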
